A study of Bos taurus with 10 samples.

Results

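Conglutinin and the other collectins were followed in the liver of Holstein dairy cows in week 5 of lactation. The group holds 10 gene names, of which 9 could be matched to 18 probe sets out of 24016 on a bovine expression array, a probe set being the set of short probes that reads 1 transcript. The genes were CGN1, MBL1, MBL2, COLEC11, COLEC12, SFTPD, SFTPA1, MASP1 and MASP2, each taken where the platform annotation gave a probe set that single gene symbol. COLEC10 was not analysed here. The group was chosen by gene name with the CLA minus control differences of these arrays already known, CGN1 first among them, so these differences are given as a description and no test is built on them.

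Collectins are soluble or membrane-bound C-type lectins whose chains join a collagen-like stalk to a head that binds sugars in the presence of calcium. They bind sugars on the surface of microbes. The mannan-binding lectins and collectin-11 carry the MASP proteases, which cleave the complement proteins C4 and C2 once the lectin has bound, and this is the lectin pathway of complement. The liver makes most of the circulating members. Conglutinin is a serum collectin of cattle and their relatives, known for binding the sugar chains of the complement fragment iC3b. In RefSeq's annotation of the bovine assembly ARS-UCD2.0, 7 protein-coding genes stand in a row from CGN1 to SFTPA1 on 1 chromosome, and 6 of them are the collectin genes CGN1, CL46, CL43, SFTPD, MBL1 and SFTPA1. Because these neighbours are related, a probe set of one could also read RNA of another, which was not tested.

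Both groups ate the same mixed ration and a fat shielded from breakdown in the rumen, which was a control fat in the control cows and one holding conjugated linoleic acid (CLA, isomers of linoleic acid whose double bonds are conjugated) in the CLA cows. The fat was 27.3% of a supplemental concentrate, of which each cow ate 630 g of dry matter daily between week 3 before and week 14 after calving. All cows were female and had calved once or more, and the labels give no age. Each of the 40 cows belonged to 1 group of 20, and RNA of 4 cows was mixed into each of the 5 pools of a group, so that the 10 arrays measured pools and p-values rest on the spread between pools, not between single cows. The biopsies held all cell types of the liver, so fewer cells of a type and less RNA per cell cannot be told apart.

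The medians of the arrays (log2) ran from 5.83 to 5.85 in the control pools and from 5.79 to 5.82 in the CLA pools. Every CLA array median thus lay below every control one. Of all probe sets, 10437 were higher in the CLA pools and 13414 lower. Differences given below were not adjusted for this shift unless another scaling is named. Control pool 4 and CLA pool 2 stood apart from the rest, with a median correlation with the other arrays, across probe sets, of 0.9897 and 0.9901 against 0.9915 to 0.9946 for the other 8. The values of CLA pool 2 were also the most widely spread of the 10 arrays (SD over probe sets 2.43, against 2.34 to 2.41). Limma, a linear model fitted to every probe set, called 0 of 24016 (0%) at a Benjamini-Hochberg adjusted p under 0.05, and its lowest adjusted p was 0.252. Before adjustment 2135 probe sets had a p under 0.05, and 2202 in the unmoderated fit, which also called 0 after adjustment. The 7 hepatocyte markers, by which the labelled tissue was checked, were bright in all 10 pools (mean of the 7 between 13.57 and 13.73).

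CGN1, conglutinin, had the largest difference of the 18 probe sets. Its log2 values were 10.44, 10.07, 10.05, 11.01 and 10.15 in control pools 1 to 5, and 11.06, 10.03, 11.22, 11.22 and 11.09 in CLA pools 1 to 5. CLA pools 1, 3, 4 and 5 lay above every control pool, while CLA pool 2 lay below every control pool and control pool 4 reached close to the CLA pools. The means were 10.34 ± 0.40 (SD, n = 5) and 10.92 ± 0.51 (SD, n = 5), a difference of 0.58 ± 0.24 SE on the log2 scale, or 1.49-fold. CGN1 was read by 1 probe set, so no second probe set could be set beside it.

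CLA pool 2 alone made the groups overlap. It and control pool 4, the highest control pool, were the pools whose whole arrays stood apart. Without CLA pool 2 the CGN1 groups no longer overlapped and differed by 0.80 ± 0.17 SE, and without control pool 4 the difference was 0.75 ± 0.22 SE. Without both, the control pools stood at 10.18 ± 0.18 (SD, n = 4) and the CLA pools at 11.15 ± 0.085 (SD, n = 4), and the difference was 0.97 ± 0.098 SE. That is 1.67 times the difference of all 10 pools. This setting was chosen after seeing the data. It drops the highest control pool and the lowest CLA pool of CGN1, so a larger difference and smaller SDs had to follow. What sets these 2 pools apart was not tested.

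**Figure D1:**
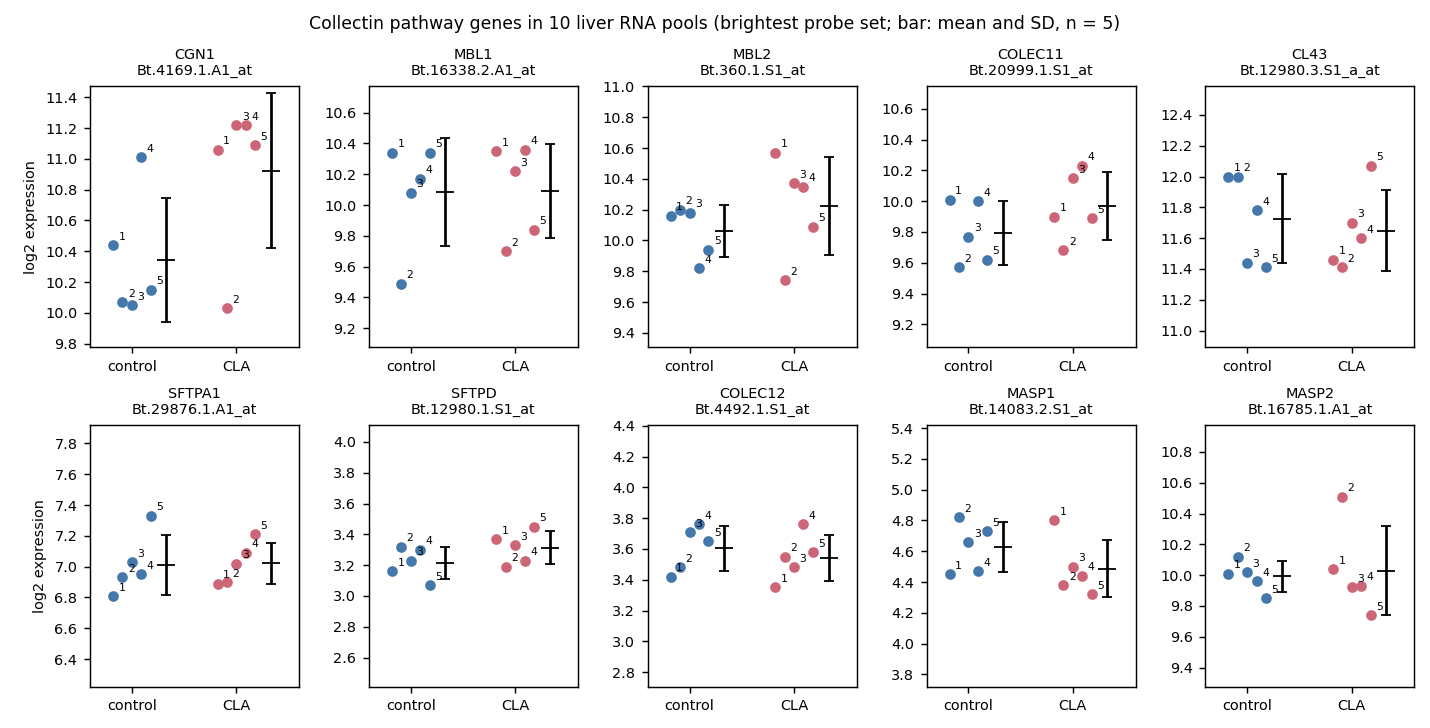
Log2 expression of 10 genes (y axis, each panel spanning the same number of log2 units) in the control and CLA pools (x axis), 1 point per pool with its pool number, at the brightest probe set of each gene; the bar gives the mean and SD of 5 pools. CGN1 in CLA pools 1, 3, 4 and 5 lies between 11.06 and 11.22, above the control pools, and CLA pool 2 lies at 10.03.

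Over all 10 pools CGN1 also varied within a group more than most probe sets of like brightness. The SD within groups was 0.457, larger than that of 98.4% of the 705 probe sets whose mean lay within 0.5 of its own. This rested on CLA pool 2 and control pool 4: without them the SD was 0.141, larger than that of 68.1% of 693 probe sets. These are the pools farthest from the median of CGN1, so its SD had to fall. The other probe sets did not each lose their own farthest pools, so the shares with and without these pools are no like comparison. The lectins MBL1 and CL43 were variable in the same sense, with SDs larger than those of 95.6% (both MBL1 probe sets) and 94.1% of the probe sets of like mean, and without the same 2 pools with 96.9% and 97.0% (MBL1) and 97.1% (CL43). COLEC11 was nearer the middle at its brighter probe set (82.8% with and without them), but its dimmer one stood at 92.2% over all 10 pools. The dimmest SFTPA1 and MASP2 probe sets stood at 99.0% and 97.9% over all 10 pools, so a wide spread was not particular to CGN1, MBL1 and CL43. Other probe sets of SFTPA1 and MASP2 stood as low as 13.2% and 0.43%. This measure does not use the difference between the groups.

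CL43, collectin-43, is no member but is a close relative of conglutinin and a neighbour of CGN1. Its values ran from 11.41 to 12 in the control pools and from 11.41 to 12.07 in the CLA pools, and the groups overlapped almost fully. The means were 11.73 ± 0.29 (SD, n = 5) and 11.65 ± 0.26 (SD, n = 5), a difference of -0.08 ± 0.15 SE. CL46, collectin-46, was among the dimmest 30% of probe sets (log2 means under 4.39) at both probe sets. It differed by -0.15 ± 0.11 SE at the brighter one (limma, Benjamini-Hochberg adjusted p = 0.734), whose ID ends in _x_at, the manufacturer's mark for probes that may also bind other transcripts, and by 0.01 ± 0.088 SE at the other.

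MBL1 and MBL2, the mannan-binding lectins that carry the MASP proteases in serum, overlapped between the groups. MBL2 stood at 10.16, 10.20, 10.18, 9.82 and 9.94 in control pools 1 to 5 and at 10.57, 9.74, 10.37, 10.35 and 10.09 in CLA pools 1 to 5. CLA pools 1, 3 and 4 lay above all control pools and CLA pool 2 below them, as for CGN1. The MBL2 difference was 0.16 ± 0.14 SE. It was 0.29 without CLA pool 2, 0.078 without CLA pool 1 and 0.10 without control pool 4. MBL1 ran from 9.49 to 10.34 in the control pools and from 9.70 to 10.36 in the CLA pools at its brighter probe set, a difference of 0.01 ± 0.18 SE, and its other probe set differed by -0.10 ± 0.18 SE. These 2 MBL1 probe sets were high and low in the same pools (Pearson's r = 0.89 over 10 pools, group means removed, as a description).

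COLEC11, collectin-11, which like the mannan-binding lectins can carry MASP proteases, had log2 values of 10.01, 9.57, 9.77, 10 and 9.62 in control pools 1 to 5. In CLA pools 1 to 5 they were 9.90, 9.68, 10.15, 10.23 and 9.89. CLA pools 3 and 4 lay above all control pools and the other CLA pools lay among them. The difference was 0.18 ± 0.12 SE at this brighter probe set and 0.15 ± 0.19 SE at the dimmer one, which followed the first across pools (r = 0.81). Without control pool 4 and CLA pool 2 they were 0.30 and 0.36. With 1 pool left out, the brighter one ran from 0.11 (without CLA pool 4) to 0.25 (without CLA pool 2), and the dimmer one from -0.0030 (without control pool 5) to 0.29 (without control pool 4), with 0.058 without CLA pool 4.

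COLEC12, a membrane-bound scavenger receptor with a collectin head, known from endothelial cells, was among the dimmest 30% of probe sets at both of its own. The pools lay between 3.35 and 3.76 at the brighter probe set and between 3.06 and 3.90 at the other. The differences had opposite signs (-0.06 ± 0.094 SE and 0.14 ± 0.13 SE), and the probe sets did not follow each other across pools (r = -0.57). No chip-based detection calls were among the values used, so whether the transcript was detected at all could not be said.

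The surfactant proteins SFTPA1 and SFTPD are collectins of the lung lining. SFTPD lay between 3.07 and 3.45 in all 10 pools, among the dimmest 30% of probe sets, and differed by 0.10 ± 0.076 SE. For SFTPA1 the 3 probe sets went apart. The brightest had means of 7.01 ± 0.20 (SD, n = 5) in the control pools and 7.02 ± 0.13 (SD, n = 5) in the CLA pools, a difference of 0.01 ± 0.10 SE. The next ran from 6.94 to 7.23 in the control pools and from 6.78 to 6.96 in the CLA pools, with 3 CLA pools below all control pools, and differed by -0.17 ± 0.075 SE (-0.11 without control pool 4 and CLA pool 2). The dimmest spread widely, from 4.51 to 5.95 in the control pools and from 4.85 to 6.93 in the CLA pools, and differed by 0.34 ± 0.36 SE. It differed by 0.028 without CLA pool 5, 0.55 without CLA pool 1 and 0.13 without control pool 2. Of 5 lung epithelium markers 3 were measured and all had lower CLA means: SFTPB lay between 4.49 and 5.21, SFTPC between 4.17 and 4.92, and ABCA3, which is not restricted to lung, between 8.28 and 8.92. Their pool mean was 5.93 to 6.14 in the control pools and 5.81 to 6.02 in the CLA pools, and their part in the SFTPA1 values was not tested.

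**Figure D2:**
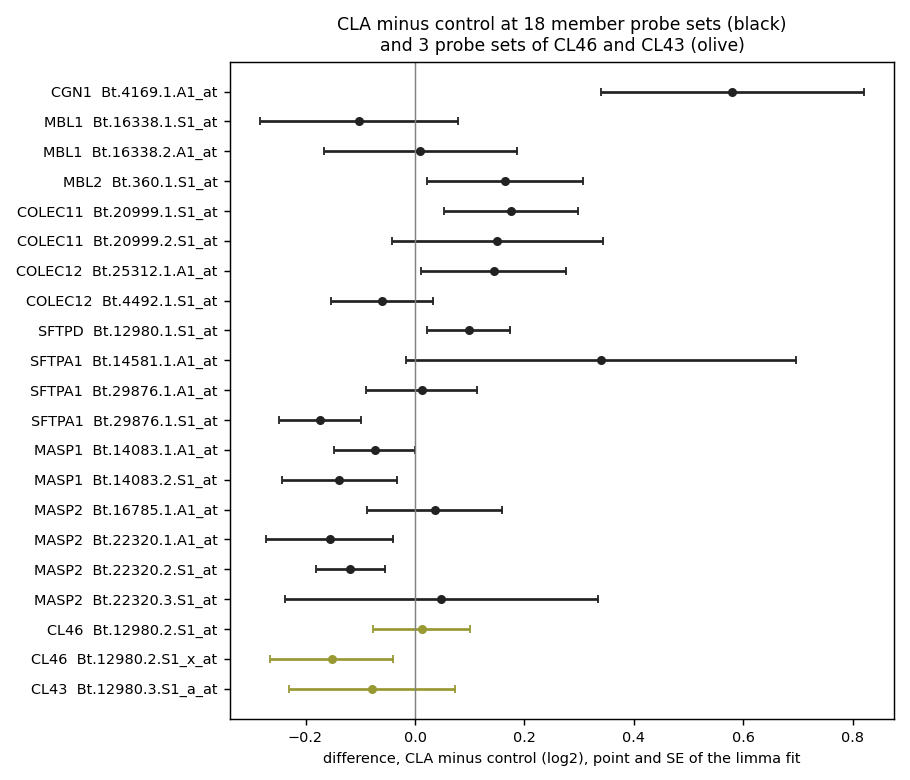
CLA minus control difference (x axis, log2, point and SE of the limma fit on 5 pools per group) at each of the 18 probe sets of the 9 genes and, in olive, the 3 probe sets of CL46 and CL43 (y axis). CGN1 stands at 0.58, and 16 of the other 17 probe sets of the group lie within 0.2 of 0; without CLA pool 2, or without it and control pool 4, 12 of the 17 do.

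MASP1 and MASP2, the serine proteases that the lectins carry, had no common direction. MASP1 differed by -0.14 ± 0.10 SE at its brighter probe set (control pools 4.45 to 4.82, CLA pools 4.32 to 4.80) and by -0.07 ± 0.074 SE at the other, both just above the dimmest 30%. Of the 4 MASP2 probe sets, the one placed next to last by brightness was the 1 member probe set whose groups did not overlap. Its control pools stood at 5.65, 5.67, 5.80, 5.64 and 5.74, and its CLA pools at 5.61, 5.51, 5.62, 5.62 and 5.55, a narrow gap. The difference was -0.12 ± 0.062 SE, and the groups overlapped after quantile normalization, after subtraction of array medians and after cyclic loess normalization. The other MASP2 probe sets, from the brightest to the dimmest, differed by 0.04 ± 0.12 SE, -0.16 ± 0.12 SE and 0.05 ± 0.29 SE. The sign of the brightest and of the dimmest turned with single pools. The brightest differed by -0.085 without CLA pool 2 and by 0.11 without CLA pool 5. It stood at 0.0005 when control pool 5 was left out, and at -0.093 when both far arrays, CLA pool 2 and control pool 4, were. The dimmest differed by -0.17 without control pool 5, by -0.053, -0.028 and -0.021 without CLA pools 3, 4 and 5, by 0.30 without CLA pool 2 and by 0.38 without CLA pool 2 and control pool 4. The one between kept its sign with 1 pool left out, from -0.24 (control pool 5) to -0.11 (CLA pool 2), and stood at -0.070 without both arrays. The 4 MASP2 probe sets did not follow one another across pools except for a single pair (r = 0.72, and between -0.53 and 0.15 for the other 5 pairs), so no level of MASP2 RNA as a whole can be read from them.

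Over the group, 11 of 18 probe sets were higher in the CLA pools and 7 lower, with a median difference of 0.024 against -0.018 over all probe sets. Other scalings gave 9 and 9 (quantile normalization), 10 and 8 (cyclic loess) or 11 and 7 (array medians subtracted). Groups without overlap were found at 1 of the 18, against 1.97% of all 24016 probe sets, and limma called 0 of the 18 at a Benjamini-Hochberg adjusted p under 0.05. The members were chosen with this contrast known, so nothing is read from these counts.

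Partners and relatives of the collectins were measured by 49 genes in 6 lists. The lists also hold liver C-type lectins and collagen-chain enzymes, which are not part of the lectin pathway of complement. Of the 49, 20 were higher, 28 lower and 1 without a difference. Their median was -0.014, against -0.010 over all 9155 named genes. The split moved with the scaling, to 15 genes higher after quantile and after cyclic loess normalization and 28 after subtraction of array medians. It was also 13 without control pool 5. In limma with Benjamini-Hochberg adjustment 0 of the 49 passed (lowest adjusted p = 0.413), and 1 of the 49 had an unadjusted p under 0.05, against 8.5% of all named genes. That count ran from 1 to 3 with 1 pool left out, with the 3 found without control pool 2.

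A list of ficolins, complement proteins and their regulators held 20 genes, of which 14 were measured, FCN1 being the only ficolin. Of these 14, 5 were higher and 9 lower (median -0.026). C2, the protease cleaved by the MASPs to build the C3 convertase, had the smallest p of the list (-0.17 ± 0.089 SE, limma adjusted p = 0.602), with control pools at 9.06 to 9.47 and CLA pools at 8.91 to 9.20. SERPING1, the inhibitor of C1 and MASP proteases, was the list's 1 gene whose groups did not overlap and is named here after its values were seen. It stood at 13.61 to 13.78 in the control pools and 13.79 to 13.87 in the CLA pools, and its second probe set differed the other way (-0.21 ± 0.089 SE). C4A, the other MASP substrate, differed by -0.04 ± 0.079 SE and C3, the central complement protein, by -0.01 ± 0.055 SE.

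The C1 complex, whose C1q chains are built like collectins, stood at 2 higher and 2 lower of 5, and its median was 0. C1QB led it by p (-0.14 ± 0.13 SE, limma adjusted p = 0.806). Of 7 terminal complement genes 4 were higher and 3 lower (median 0.048), with C8A, a chain of the membrane attack complex, first by p (-0.07 ± 0.078 SE, limma adjusted p = 0.836). Among 6 cell surface partners of collectins 2 were higher and 4 lower (median -0.045), with the lipopolysaccharide receptor TLR4 first by p (-0.22 ± 0.12 SE, limma adjusted p = 0.635).

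CD209, a C-type lectin receptor of macrophages and dendritic cells, was the 1 gene of the 49 with an unadjusted limma p under 0.05. Its means were 5.58 ± 0.13 (SD, n = 5) in the control pools and 5.34 ± 0.061 (SD, n = 5) in the CLA pools, without overlap between 5.41 to 5.70 and 5.23 to 5.38. The difference of -0.24 ± 0.074 SE missed the threshold of limma once adjusted by Benjamini-Hochberg (adjusted p = 0.413). The other 3 liver C-type lectins, CLEC4G, ASGR1 and ASGR2, differed by -0.03, 0.01 and 0.01. Markers of 3 blood and immune cell types had lower CLA means beside it. Macrophage markers of the liver were lower in 3 of 4 (median -0.15), with pool means of 9.32 to 9.80 in the control and 9.25 to 9.54 in the CLA pools. For T and NK lymphocytes, 7 of 7 markers had lower CLA means (median -0.20), with pool means of 6.65 to 7.05 and 6.46 to 6.71. So had 5 of 5 erythroid markers (median -0.082), with 4.13 to 4.38 and 4.04 to 4.30. Of the erythroid markers, HBA, ALAS2 and SLC4A1 were among the dimmest 30% of probe sets. The probe sets of HBB other than its brightest differed by -0.11, 0.24 and -0.01. The part of these lists in the CD209 value was not tested. Of 13 genes that hydroxylate, glycosylate and fold collagen-like chains, 5 were higher and 8 lower (median -0.024), with the prolyl hydroxylase P3H1 first by p (-0.13 ± 0.080 SE, limma adjusted p = 0.658).

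Whether the members varied together from pool to pool was asked with group means removed, which leaves the CLA contrast out. The 36 pairs of members, each at its brightest probe set, gave by Pearson's r 0 adjusted p under 0.05 and 2 unadjusted ones in an exact two-sided permutation test over 14400 reorderings of pools within groups. CGN1 and COLEC11 were the closest pair by r, though not by rho (Pearson's r = 0.80, exact permutation p = 0.00278, Benjamini-Hochberg adjusted 0.100; Spearman's rho = 0.68, exact permutation p = 0.0386, adjusted 0.315). Without CLA pool 2 and control pool 4, the pools farthest from the median of CGN1, r was 0.72. The dip in CLA pool 2 was seen in both genes, 0.89 below the group mean for CGN1 and 0.29 below it for COLEC11, and MBL2 and MBL1 were 0.48 and 0.39 below theirs. By rho, COLEC12 with SFTPA1 (rho = 0.70, exact permutation p = 0.0415) and MBL2 with MASP1 (rho = 0.65, exact permutation p = 0.0439) were also under 0.05 unadjusted. Both had an adjusted p of 0.315.

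CGN1 and the brightest MASP2 probe set went in opposite directions (r = -0.72, exact permutation p = 0.0643, adjusted 0.579; rho = -0.66, exact permutation p = 0.0525, adjusted 0.315), with r = -0.49 without the same pools. The other MASP2 probe sets, by brightness, gave r = 0.46, 0.053 and 0.75 with CGN1, so the direction was that of 1 probe set and not of the gene. That probe set stood 0.48 above its group mean in CLA pool 2, its highest value of the 10. The second pair under 0.05 by r was SFTPA1 and MASP2, again at the brightest probe set of each (r = -0.61, exact permutation p = 0.0189, adjusted 0.340; rho = -0.70, exact permutation p = 0.0320, adjusted 0.315). Without control pool 5 and CLA pool 5, the farthest from the median of SFTPA1, r was -0.43. CGN1 followed its neighbours SFTPD and MBL1 less closely (r = 0.44 and 0.55, exact permutation p = 0.259 and 0.155, adjusted 0.774 and 0.766; rho = 0.35 and 0.46), and r was -0.0045 for SFTPD and 0.44 for MBL1 without CLA pool 2 and control pool 4. Set against all 17 other member probe sets, a family added after seeing the data, CGN1 gave 1 adjusted p under 0.05, that of the brighter COLEC11 probe set (exact permutation p = 0.00278, adjusted 0.0472; by rho, adjusted 0.219). The dimmer COLEC11 probe set had r = 0.69 (exact permutation p = 0.0346, adjusted 0.196), and r = 0.54 without the same pools. By rho, the dimmest MASP2 probe set was the closest of the 17 (rho = 0.81, exact permutation p = 0.00375, adjusted 0.0638). Its r of 0.75 fell to 0.50 without CLA pool 2 and control pool 4.

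**Figure D3:**
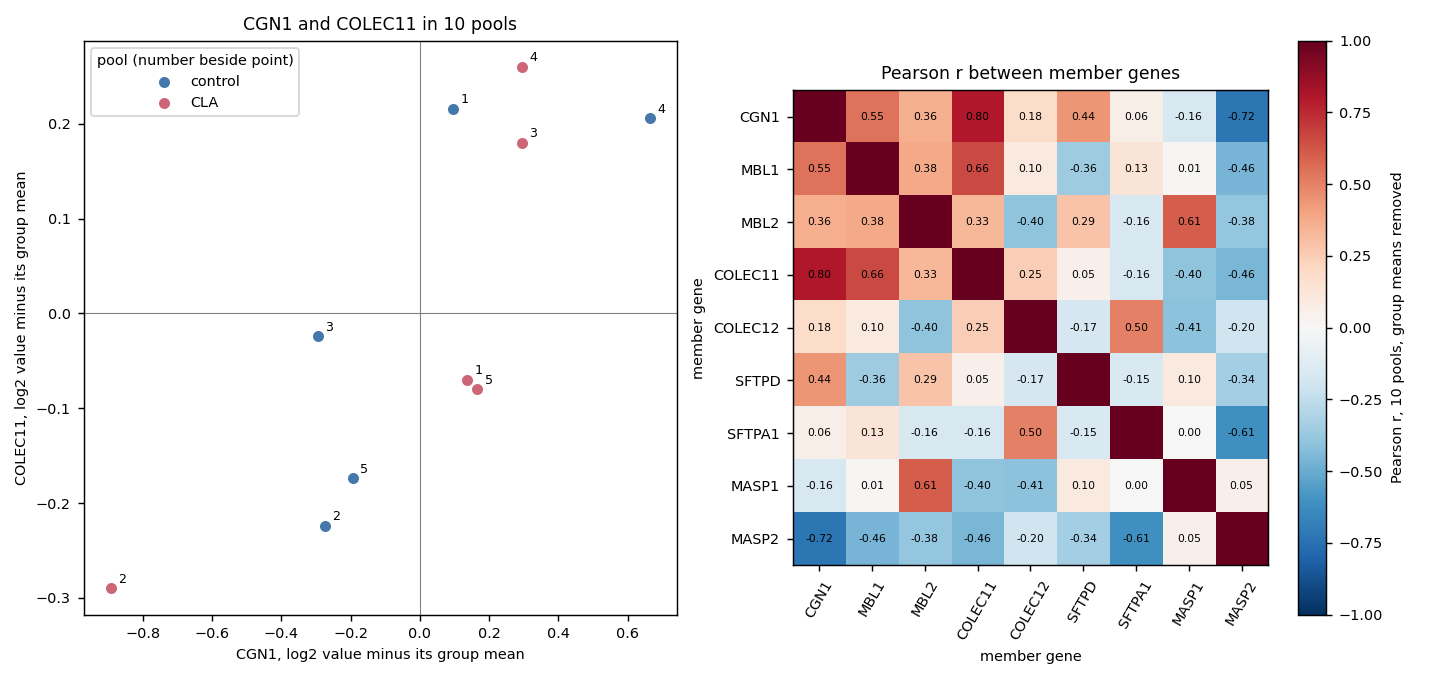
Left, log2 value minus its group mean of COLEC11 (y axis) against CGN1 (x axis), 1 point per pool with its number, control pools in blue and CLA pools in red; CLA pool 2 lies lowest in both genes. Right, Pearson's r between the 9 member genes at their brightest probe sets over the 10 pools (colour and number), 0.80 for CGN1 and COLEC11 and -0.72 for CGN1 and the brightest MASP2 probe set, while the dimmest one, not drawn, gave 0.75.

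Marker lists of 7 cell types were set against CGN1 in the same way, and 0 of the 7 relations had an adjusted p under 0.05. The closest was the list of 7 stellate cell genes (r = 0.72, exact permutation p = 0.0404, adjusted 0.220; rho = 0.61, exact permutation p = 0.0711; r = 0.61 without CLA pool 2 and control pool 4). Its pool means were 6.32 to 6.59 in the control pools and 6.28 to 6.66 in the CLA pools, 4 of its 7 genes were higher in the CLA pools, and the lowest mean was that of CLA pool 2. Hepatocyte markers went the other way (r = -0.60, exact permutation p = 0.0629, adjusted 0.220; rho = -0.68, exact permutation p = 0.0350; r = -0.57 without the same pools), with 6 of 7 genes higher in the CLA pools and pool means of 13.57 to 13.71 and 13.68 to 13.73. The other 5 lists had r between -0.086 and 0.27 (exact permutation p from 0.486 to 0.910). The part of any of these cell types in the CGN1 difference was not tested.

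By Pearson's r over the same 10 values, after the mean of each group was taken off, the genes most like CGN1 among 4156 compared were ANGPTL2, an angiopoietin-like secreted protein, with r = 0.94 (rho = 0.93), LOC528919 with r = 0.92 (rho = 0.90) and FAM131A with r = 0.92 (rho = 0.77). Without CLA pool 2 and control pool 4 these were 0.87, 0.71 and 0.86. ANGPTL2 shared the dip of CLA pool 2 (7.11, against 7.53 to 7.93 in the other CLA pools) and the high value of control pool 4 (7.80, against 7.37 to 7.66), yet its groups differed by 0.09 ± 0.15 SE only. The second probe sets of LOC528919 and FAM131A did not follow CGN1 (r = 0.16 and -0.18). The likeness was picked as the highest of many and is a description. COLEC11, the member closest to CGN1 by r, was exceeded by 359 probe sets.

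**Figure D4:**
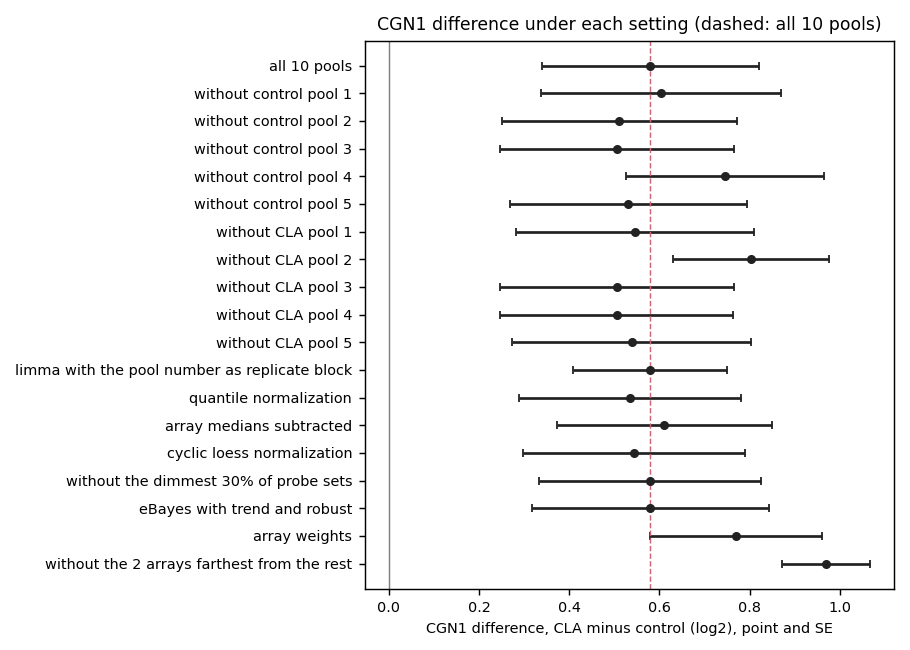
CGN1 difference, CLA minus control (x axis, log2, point and SE of each fit), with all 10 pools and under each other setting (y axis). The differences run from 0.51 to 0.97, with the highest values without CLA pool 2, without control pool 4, without both, and with array weights.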

How the data were processed

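RNA pools of liver biopsies were read on the GeneChip Bovine Genome Array, 1 array per pool. The deposited table gives the authors' normalized expression on a log2 scale with 2 decimals. Affymetrix Expression Console 1.1 and RMA, which corrects background, equalizes arrays and summarizes probes, are named per the submitters' processing notes, and nothing used here gives their order or settings. Values entered the fit as deposited, and 112 control probe sets were left out. Members were matched by single gene symbol in the platform annotation, and all 9 gene IDs were found in RefSeq under the same symbols. No genome build is named with the array values, so no coordinates are given.

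Differences, CLA minus control, were fitted by limma 3.58.1 (R 4.3.3; lmFit and eBayes, no covariates, no filter) on all 10 arrays and adjusted over 24016 probe sets by Benjamini-Hochberg. SEs are the moderated ones of the fit. A list gene is read at its brightest probe set over the 10 arrays. The fit was tested on simulated data. Named genes were all members, the gene of smallest p in each list, list genes with an unadjusted p under 0.05, and the 3 genes most like CGN1 among probe sets at or above the median SD. Members and lists were chosen with earlier results of these data known. Samples were grouped by title. The labels say that pools mix different cows. The number of arrays limits the precision. Pool numbers were checked as pairs: same-numbered pools correlated between -0.086 and 0.092 in their deviations, so they were not treated as pairs. The relations of CGN1 to marker lists and to every member probe set, and the fit without control pool 4 and CLA pool 2, were added after seeing the data.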

Additional observations from a re-analysis of the deposited data

Results flagged for a closer look

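Groups of 5 pools were examined for the members, CL43 and the named list genes, 52 in all. In 6 of them, the gap of a pool to the nearest other pool, divided by the range of the group, passed 0.71. Chance alone passes this limit in about 1 of 20 groups. CGN1 in CLA pool 2 was 10.03, against 11.06 to 11.22 in the other CLA pools. The dimmest MASP2 probe set was low in CLA pool 2 as well (4.15, against 5.22 to 5.58), and also in control pool 5 (4.24, against 5.25 to 5.44), so that it dipped in both groups. The dimmer MASP1 probe set was high in control pool 2 (4.65, against 4.39 to 4.44). CD209 was low in CLA pool 5 (5.23, against 5.35 to 5.38), and P3H1 was low in control pool 2 (7.78, against 7.99 to 8.06).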

How the results depend on the processing

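The CGN1 difference kept its sign under every setting run, from 0.506 to 0.804 with 1 pool left out, and stood at 0.534 after quantile normalization, 0.544 after cyclic loess, 0.611 after subtraction of array medians and 0.770 with array weights. For the 17 member probe sets other than CGN1, 0 of 303 values under these settings moved by more than the SD between pools. Leaving out 1 of 5 pools can hardly move a difference that far, and some other settings leave it unchanged by construction. This count therefore says little about stability. Of these 17 probe sets, 11 kept 1 sign throughout. The exceptions were both MBL1 probe sets, the dimmer COLEC11 probe set, 2 of MASP2 and 1 of SFTPA1. With the pool number as a block, CGN1 differed by 0.58 ± 0.17 SE and 0 probe sets were called, as without it. In that check 2 of 5 control pools and 0 of 5 CLA pools correlated best with the pool of their own number. Calls over the whole table stayed at 0 with any single pool left out. Without control pool 4 and CLA pool 2, a setting chosen after seeing the data, limma called 1 probe set, CGN1 (Benjamini-Hochberg adjusted p = 0.0302). Those are the highest control pool and the lowest CLA pool in CGN1, and the gene was chosen on this contrast, so this is no independent support. Member probe sets without overlap numbered 1 to 2 with 1 pool left out (2 without control pool 1, where SFTPA1 joined, or without CLA pool 2, where CGN1 joined), 0 after quantile normalization, subtraction of array medians or cyclic loess, and 2 without those 2 arrays. The median of the member differences lay between -0.016 and 0.076 with 1 pool left out. Of the 3 genes most like CGN1, 1 remained by Spearman's rho and 1 after quantile normalization. An order of levels between member genes was planned and not run, since different probe sets share no scale. Signal over background was not among the values used, which limits what the dim probe sets of COLEC12, SFTPD and CL46 can show.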
